A study of Mus musculus with 4 samples.

Results

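Genes of the heart's short-term energy stores (creatine, adenylate and glycogen) were followed across sections of infarcted and uninjured mouse hearts. They were taken by symbol from the 21885 genes of the count files, and all 7 were found. The rule uses no measured value, but the members were chosen with earlier results of these data known. The creatine kinase system has 4 of them: Ckm (ENSMUSG00000030399), Ckmt2 (ENSMUSG00000021622), Ckb (ENSMUSG00000001270) and Slc6a8 (ENSMUSG00000019558). Ak1 (ENSMUSG00000026817) is an adenylate kinase, and Pygm (ENSMUSG00000032648) and Pygb (ENSMUSG00000033059) are glycogen phosphorylases.

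Gene expression was measured with Visium, a slide whose barcoded spots each capture polyadenylated RNA from a small disc of tissue that can hold several cells of different types. The study asked how fibroblasts are activated in the heart after myocardial infarction, which was induced by permanent ligation of the left anterior descending coronary artery. All mice carried a Collagen1a1-GFP reporter, which marks cells that express this collagen gene, and were 8 to 12 weeks old. There were 4 hearts with 1 section each: a control heart without infarction labelled female, a heart 3 days post infarction (3 dpi) labelled female, and a pair of hearts at 5 dpi, one labelled female (5 dpi-F) and one labelled male (5 dpi-M). The order control, 3 dpi, 5 dpi-F, 5 dpi-M is kept wherever levels are listed. With 1 section in the control group and 1 at 3 dpi, no test between time points was run, and such differences are given as values. The sex labels of the 5 dpi pair went against the counts: 704 UMIs of 4 Y-linked genes were found in 5 dpi-F, 1 in 5 dpi-M and 0 in both other sections. Both are called here by their labels, and no comparison rests on sex.

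After filtering, 1146 to 1741 spots per section were kept, with 3742105 to 9540940 unique molecular identifiers (UMIs) outside the 13 mitochondrially encoded genes. Levels are UMIs per 1000000 of these (CPM), since mitochondrially encoded genes took 40.1% of the UMIs in the control and 13.3% to 21.4% in the infarcted sections. Intervals on levels are exact Poisson 95% intervals and cover counting error only. The cardiomyocyte content of a spot was taken as the share of 11 markers (Myh6, Tnnt2, Tnni3, Actc1, Myl2, Myl3, Pln, Mb, Tcap, Ryr2 and Ttn) in its UMIs, and none of the 7 genes is among them. This share was divided by its section's 90th percentile, which was 11.1%, 10.2%, 7.95% and 9.05%. Spots under 0.5 of it are called low, those from 0.5 to under 0.75 middle, and those at 0.75 or over muscle-rich. Of the control's spots 1096 were muscle-rich, 49 middle and 1 low. The infarcted sections held 692 to 1100 low, 149 to 346 middle and 286 to 507 muscle-rich spots.

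Phosphocreatine is the fastest store of high-energy phosphate in heart and skeletal muscle. Creatine enters cells through the transporter Slc6a8, is phosphorylated beside the mitochondrial inner membrane by the sarcomeric mitochondrial creatine kinase Ckmt2, and gives its phosphate back to ADP at the myofibrils through the muscle-type creatine kinase Ckm. Ckb is the brain-type cytosolic creatine kinase, which many non-muscle cells express. Ak1 makes ATP and AMP from ADP, and the phosphorylases Pygm (muscle type) and Pygb (brain type) release glucose phosphate from glycogen.

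RefSeq promoter sequences were at hand for 6 of the 7 genes; Slc6a8 was not listed. The 250 bases before the start site are shown for the 3 creatine kinases, whose levels parted in these sections, and for Pygm, whose fitted change per cardiomyocyte-marker UMI in low spots was the smallest of the 7. They are written 5′ to 3′ on the strand of the gene, GRCm38.p6, with capitals at each E-box (CANNTG, the site of MyoD-family and other basic helix-loop-helix factors) and at each MEF2 core (CTA, any 4 bases, TAG). Both motifs read the same on either strand in this form. The windows are chr7:19410844-19411093 (plus strand) for Ckm, chr13:91876886-91877135 (minus strand) for Ckmt2, chr12:111672339-111672588 (minus strand) for Ckb and chr19:6384158-6384407 (plus strand) for Pygm.
Ckm: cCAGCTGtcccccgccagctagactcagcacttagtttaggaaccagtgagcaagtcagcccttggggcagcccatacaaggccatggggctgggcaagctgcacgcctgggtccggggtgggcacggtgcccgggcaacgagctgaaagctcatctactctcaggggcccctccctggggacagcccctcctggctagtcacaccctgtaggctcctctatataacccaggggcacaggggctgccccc
Ckmt2: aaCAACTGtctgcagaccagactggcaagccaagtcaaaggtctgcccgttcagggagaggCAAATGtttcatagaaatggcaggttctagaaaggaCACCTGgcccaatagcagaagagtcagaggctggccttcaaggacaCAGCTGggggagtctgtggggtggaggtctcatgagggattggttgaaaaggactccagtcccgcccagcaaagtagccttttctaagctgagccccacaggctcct
Ckb: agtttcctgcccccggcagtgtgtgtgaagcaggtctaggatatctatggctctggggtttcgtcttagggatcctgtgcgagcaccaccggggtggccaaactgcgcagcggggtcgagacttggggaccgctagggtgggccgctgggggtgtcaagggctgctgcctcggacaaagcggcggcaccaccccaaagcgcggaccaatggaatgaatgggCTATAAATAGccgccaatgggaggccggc
Pygm: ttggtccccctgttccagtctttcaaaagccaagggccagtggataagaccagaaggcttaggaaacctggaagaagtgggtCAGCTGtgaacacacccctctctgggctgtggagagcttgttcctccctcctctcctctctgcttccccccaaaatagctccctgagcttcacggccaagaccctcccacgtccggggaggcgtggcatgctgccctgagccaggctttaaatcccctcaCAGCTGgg
The window of Ckmt2 held 4 E-boxes, that of Pygm 2, that of Ckm 1 and that of Ckb 0. Of the matched genes not shown, Pygb also held 0, and the windows of the 4 start sites of Ak1 held 3, 1, 2 and 1. Ckb alone among the 6 matched genes held a MEF2 core, and this match has the letters TATAAA of a TATA box inside it. Of all 32851 RefSeq promoter windows of this length 66.2% held at least 1 E-box, 3.84% held at least 4 and 3.20% held a MEF2 core. These are matches of letters and not sites of binding.

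Across whole sections, Ckm, Ckmt2, Ak1 and Pygm were at least 2-fold lower in 3 of 3 infarcted sections than in the control, Pygb was lower in 3 of 3, Ckb was at least 2-fold higher in 3 of 3, and Slc6a8 stayed within its counting error on this scale. Among the 3524 genes that reached 50 CPM in a section, 8.63% were at least 2-fold lower in 3 of 3 sections and 26.0% at least 2-fold higher, while 31.0% were lower and 60.4% higher by any amount in 3 of 3. The median of the mean log2 ratios over the control was -1.33 for the 7 genes and 0.43 for all 3524. The 2-fold mark depended on the denominator and the scaling. Over all UMIs, mitochondrially encoded genes included, the 3 dpi section stood at 0.516 (Ckmt2), 0.520 (Pygm) and 0.654 (Ak1) of the control, and only Ckm of these 4 was at least 2-fold lower in 3 of 3. With all spots under tissue Ak1 was at 0.502 at 3 dpi, just short of it. With TMM the mean log2 ratio of Ckb was 0.88, under the 2-fold mark, and that of Pygb was -1.49, past it. The control is 1 section and its own spread is not known.

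Ckm was at 3171 CPM in the control, 1020.4 CPM at 3 dpi, 482 CPM in 5 dpi-F and 819.8 CPM in 5 dpi-M. Ckmt2 followed the same order, with 2480.2, 975, 443 and 779.8 CPM. Both genes were highest in the control, and the intervals of the 4 sections did not overlap for either of them. The mean log2 ratio of the infarcted sections over the control was -2.10 ± 0.56 (SD, n = 3) for Ckm and -1.83 ± 0.59 (SD, n = 3) for Ckmt2.

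Ckb went the other way, from 103 CPM in the control to 228, 278 and 254 CPM after infarction. The infarcted sections stood 2.22-, 2.71- and 2.48-fold above the control, close together and apart from it, with an SD of 0.15 on the log2 scale (n = 3). Slc6a8 held 109.8, 117, 111 and 109 CPM. Its 4 intervals overlapped each other, from 99.5 to 124 CPM, and no order of the sections can be read from them. Over all UMIs it was at 65.8 CPM in the control and 91.8, 96.0 and 93.5 CPM after infarction, so its standing against the control depended on the denominator. After TMM scaling, whose factors moved infarcted sections by -0.48 to -0.35 log2 relative to the uninjured one, the mean ratio of Slc6a8 was -0.39.

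Of the adenylate and glycogen genes Pygm differed as much as the muscle creatine kinases, and Ak1 and Pygb less. Pygm held 583, 231, 97.2 and 156 CPM. Ak1 held 419.5, 209, 130.1 and 171 CPM, and Pygb 463, 279.7, 156 and 247 CPM. The section 5 dpi-F, with the largest share of low spots, 71.7%, was the lowest of the 4 for each of Ckm, Ckmt2, Ak1, Pygm and Pygb.

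**Figure D1:**
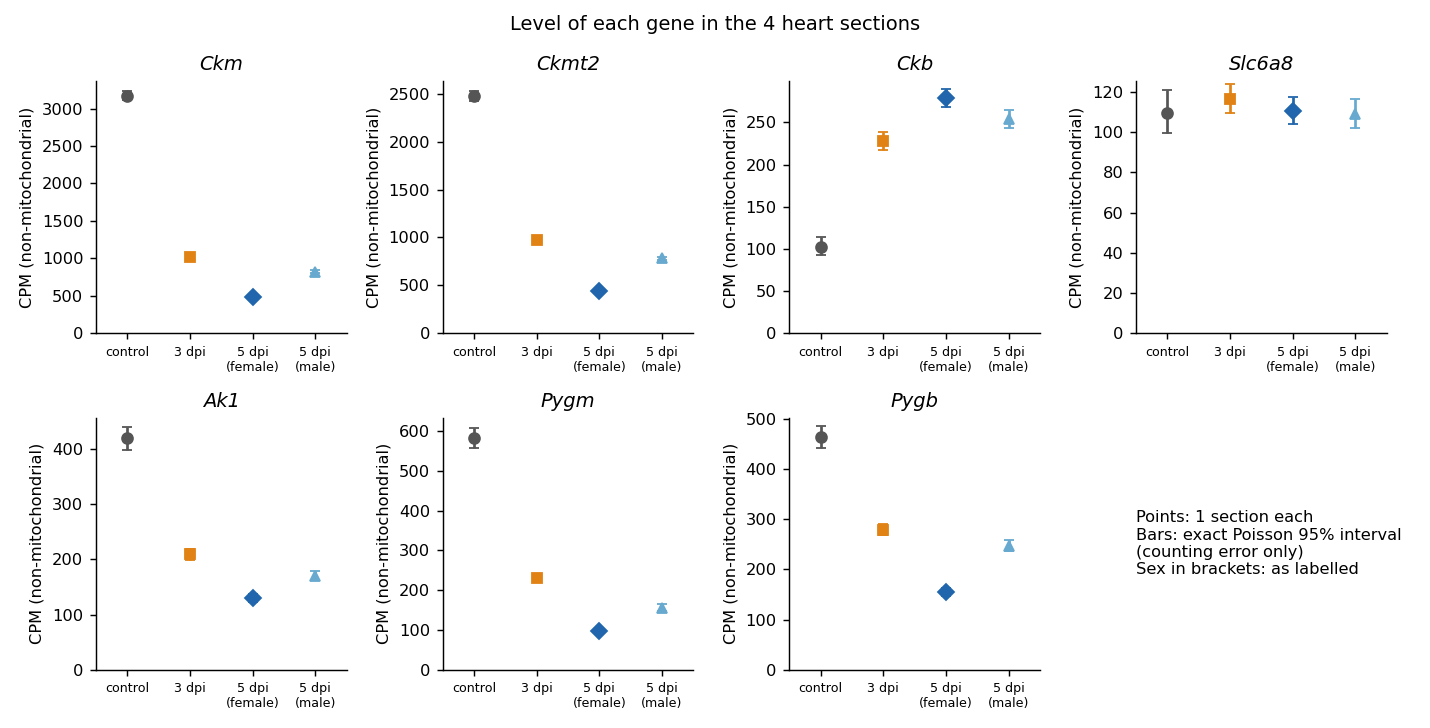
Level of the 7 genes in each section, in CPM over non-mitochondrial UMIs on an axis from 0; each point is 1 section and the bars are exact Poisson 95% intervals. Ckm is at 3171 CPM in the control and between 482 and 1020.4 CPM after infarction, Ckb at 103 CPM and between 228 and 278 CPM, and Slc6a8 between 109 and 117 CPM.

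The cardiomyocyte markers moved with these levels. They were above 0 in each section, 11 of 11, and their sums were 98123, 44238, 19330.5 and 36239 CPM. Fewer cardiomyocytes in a section and less RNA in each of them cannot be told apart in such sums. Over the same sections the 6 fibroblast markers went from 1048 CPM in the control to between 10023 and 20845 CPM, and the 6 macrophage markers from 763 CPM to between 4512 and 8357 CPM. Ckm and Pygm are also the isoforms of skeletal muscle: of the 6 skeletal muscle markers Myh4 was at 0 in all 4 sections, and apart from Acta1, which injured cardiomyocytes express too, their sum was 4.54 to 31.4 CPM.

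The contrast between the isoforms can be put as ratios of UMIs within a section, of which the change is read, since 2 genes are not caught equally. For each 100 Ckm UMIs the sections held 3.24, 22.3, 57.8 and 31.0 Ckb UMIs. Pygb per 100 Pygm went from 79.5 to 121, 160.3 and 158. Both ratios were higher in 3 of 3 infarcted sections, by 3.40 ± 0.70 and 0.87 ± 0.23 on the log2 scale (SD, n = 3). The ratio of the mitochondrial to the cytosolic muscle kinase moved less: Ckmt2 per 100 Ckm was 78.2, 95.6, 91.9 and 95.1, a log2 change of 0.27 ± 0.03 (SD, n = 3).

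When only muscle-rich spots were taken, most of these differences were smaller. Ckm was then at 3188, 2908, 2564 and 2182 CPM. Pygm was at 584, 519, 360.2 and 364 CPM, and Ckb at 100.5, 146, 185 and 143 CPM. None of the 7 genes was 2-fold apart from the control in 3 of 3 sections, where 0.206% of the 2918 genes that reached 50 CPM were 2-fold lower and 4.15% 2-fold higher. Ckm, Ckmt2 and Pygm were lower in 3 of 3 (23.6% of genes) and Ckb, Slc6a8 and Pygb were higher in 3 of 3 (40.4%). Pygb thus lay on opposite sides of the control, with a mean log2 ratio of -1.07 ± 0.45 over whole sections and 0.15 ± 0.09 over muscle-rich spots (SD, n = 3). The ratio of Ckb to Ckm was still higher, with 3.15 per 100 in the control against 5.01, 7.23 and 6.55, and so was that of Pygb to Pygm, with 79.3 against 106, 142 and 133. These spots were not alike in their muscle content or their other cells. The 11 cardiomyocyte markers made up 9.89% of non-mitochondrial UMIs in the control and 9.53%, 8.21% and 8.38% after infarction. Fibroblast markers were at 1034 CPM in the control and 3109, 4984 and 2772 CPM after infarction, and macrophage markers at 739 against 1406, 1669.9 and 1201 CPM. Border-zone cardiomyocyte markers were at 2910 against 10488, 18352 and 9405 CPM, of which Nppa alone made up 4514, 8982 and 3515 CPM after infarction. Their part in the differences of muscle-rich spots was not tested.

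Within the infarcted sections the spots themselves were then ordered by their cardiomyocyte share. Ckm went from 70.3 CPM in spots under 0.1 of the section's 90th percentile to 3474 CPM in spots at or above it at 3 dpi. It went from 16.6 to 2958 CPM in 5 dpi-F and from 22.3 to 2421 CPM in 5 dpi-M. Each richer bin of the 6 held a higher level than the one before it, in each of the 3 sections. Ckmt2, Ak1, Pygm and Pygb were ordered the same way, with Pygb between 63.4 and 79.3 CPM in the poorest spots and between 553 and 603 CPM in the richest.

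Ckb and Slc6a8 did not follow the muscle. Ckb was between 253 and 307 CPM in the poorest spots and between 117 and 170.2 CPM in the richest of the 3 infarcted sections. In the 5 dpi sections its highest value was not in the poorest spots but between 0.1 and 0.25 of the percentile, at 356 and 347 CPM, and the intervals of these bins lay above those of the poorest spots in 5 dpi-F. Slc6a8 was lowest at both ends: in the poorest spots it was at 84.4, 94.2 and 86.3 CPM, in the richest at 109, 95.4 and 82.6 CPM, and its highest values, 137, 158 and 165 CPM, lay between 0.25 and 0.75. The richest control spots held Ckb at 67.3 CPM, with 17 UMIs in all.

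**Figure D2:**
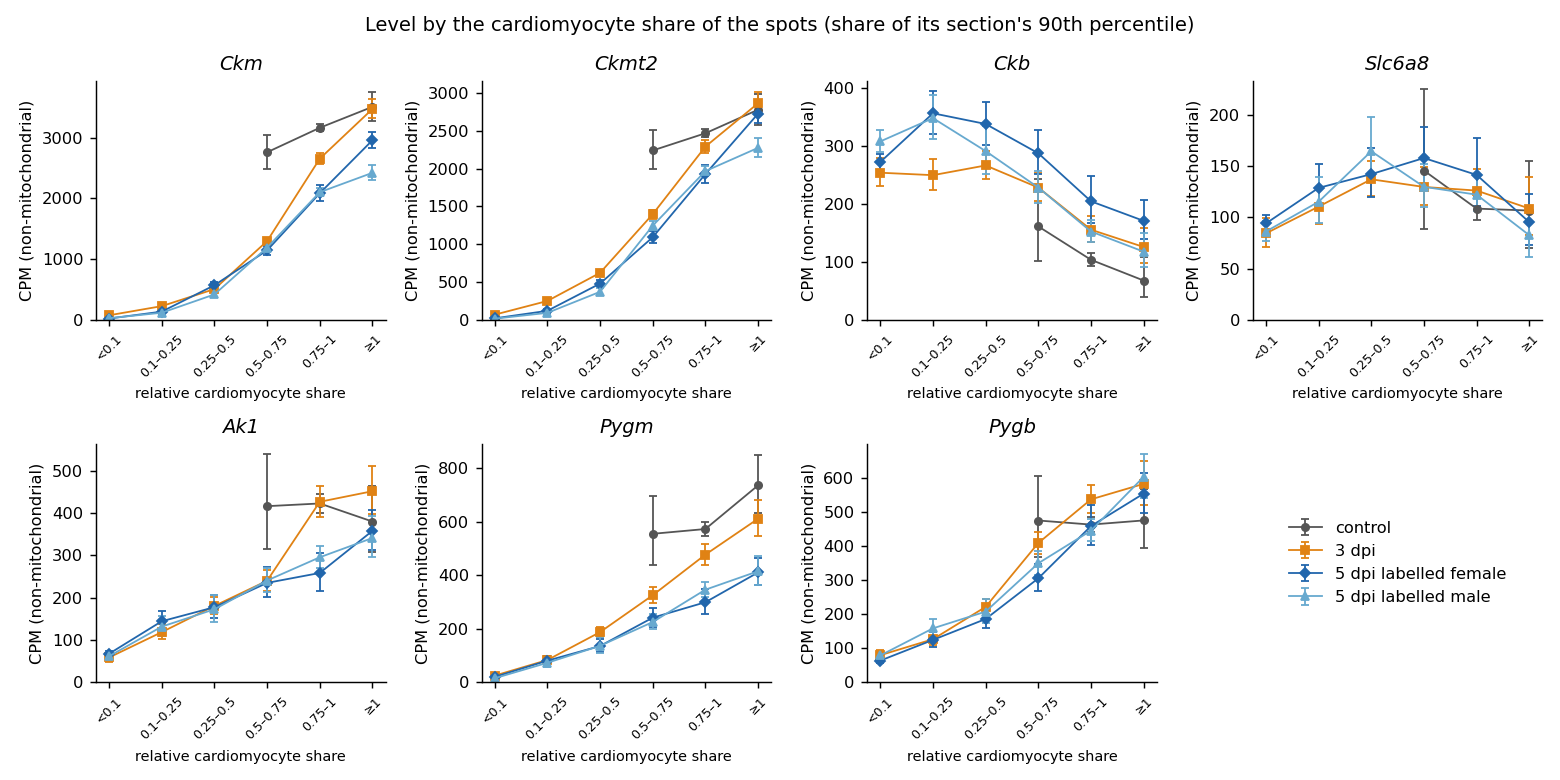
Level of the 7 genes in spots binned by their cardiomyocyte share relative to the section's 90th percentile, in CPM on axes from 0, with exact Poisson 95% intervals; the control appears in the 3 richest bins only. Ckm, Ckmt2, Ak1, Pygm and Pygb are higher in each richer bin of the 3 infarcted sections, Ckb is lower in each bin above 0.5, and Slc6a8 is highest between 0.25 and 0.75.

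In the test of low against muscle-rich spots all 7 genes passed the threshold, 6 of them lower and Ckb higher. The test compared UMIs summed per section and class over the 3 infarcted sections (edgeR quasi-likelihood test with TMM scaling and the section as a block, Benjamini-Hochberg adjustment over 10848 genes, threshold 0.05). Of all genes tested 52.7% passed, 26.5% higher and 26.2% lower, and since the classes were set by cardiomyocyte markers, a gene of the same cells is lower here by the choice of spots. TMM shifted this contrast by -0.42 log2, so the fitted changes stand further down than the CPM do. Of the genes that passed 50.3% were higher, and 74.3% with library sizes alone. Other cells moved with this contrast. Fibroblast markers were at 13165, 24179 and 21723 CPM in low against 3109, 4984 and 2772 CPM in muscle-rich spots, and macrophage markers at 6275, 9924 and 9407 CPM against 1406, 1669.9 and 1201 CPM. Mural and smooth muscle markers were at 975, 2121 and 1800 CPM against 548, 791 and 573 CPM, and neutrophil markers at 250, 244 and 222 CPM against 29.2, 88.3 and 24.6 CPM. Endothelial markers went the other way, at 1496, 850 and 1093 CPM in low against 1714, 2283 and 3364 CPM in muscle-rich spots. Mitochondrially encoded genes took 9.97%, 5.03% and 3.37% of UMIs against 38.9%, 40.8% and 28.7%. Their part in the changes was not tested.

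Ckm was at 272 CPM in low and 2908 CPM in muscle-rich spots at 3 dpi, at 103 and 2564 CPM in 5 dpi-F, and at 92.9 and 2182 CPM in 5 dpi-M. It was 23.9-fold lower in low spots, a log2 change of -4.58 ± 0.26 (SE), with an edgeR adjusted p of 5.1e-09. Ckmt2 was at 319.8, 88.6 and 74.8 CPM in low spots against 2470.3, 2368 and 2046 CPM, a change of -4.49 ± 0.33 (SE; edgeR adjusted p = 4.0e-08). These 2 changes were larger than those of the 11 cardiomyocyte markers in the same fit, which ranged from -4.16 (Myl3) to -2.34 (Tnnt2).

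The log2 change was -3.24 ± 0.17 for Pygm, -2.62 ± 0.14 for Pygb and -2.22 ± 0.14 for Ak1 (SE). Their edgeR adjusted p-values were 4.3e-09, 4.3e-09 and 1.2e-08. The phosphorylases were at 101, 43.1 and 42.5 CPM (Pygm) and 145, 87.5 and 111 CPM (Pygb) in low spots, and Ak1 at 120.2, 92.05 and 90.02 CPM. In each section the low-spot level lay below the muscle-rich level for all 3 genes.

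Ckb was at 257 CPM in low and 146 CPM in muscle-rich spots at 3 dpi, at 292 and 185 CPM in 5 dpi-F, and at 313 and 143 CPM in 5 dpi-M. In 3 of 3 sections it was higher in low spots. The fitted change was 0.45 ± 0.13 on the log2 scale (SE; edgeR adjusted p = 0.0087), and without 5 dpi-M it was 0.35 with an adjusted p of 0.062. Slc6a8 was at 111, 105 and 103 CPM in low spots against 121, 116 and 112 CPM. Its change of -0.56 ± 0.13 (SE; edgeR adjusted p = 0.0021) rested on the scaling: with library sizes alone it was -0.13 with an adjusted p of 0.38.

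**Figure D3:**
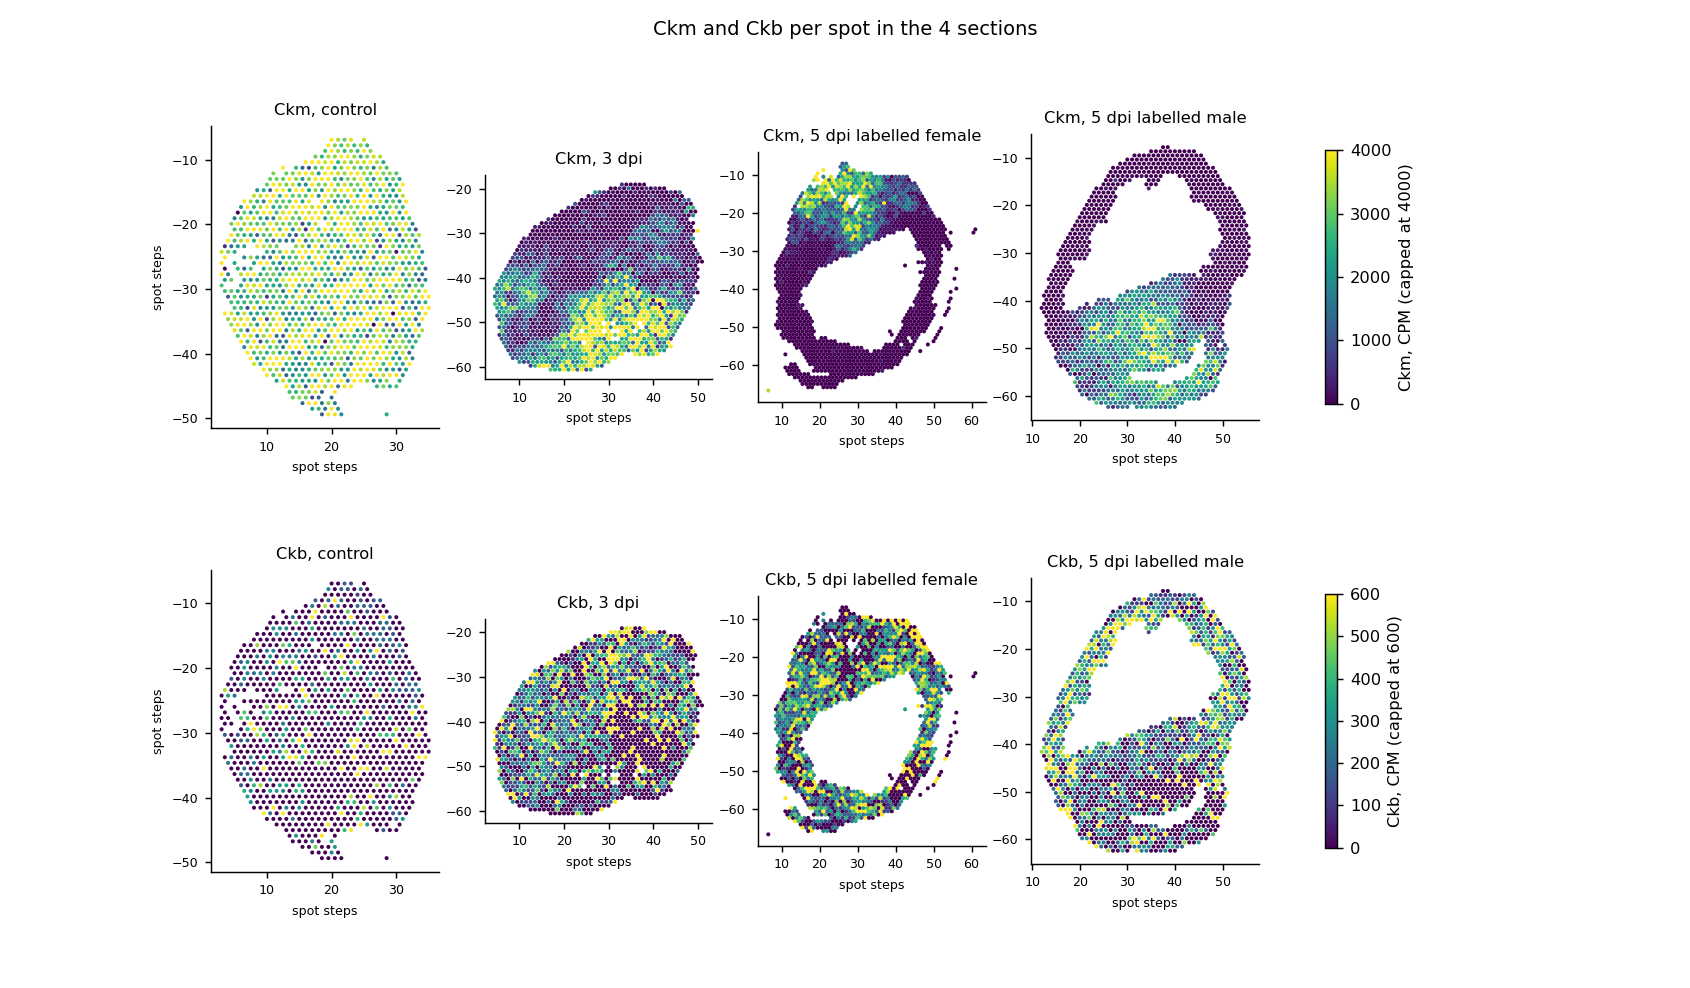
Ckm (top row) and Ckb (bottom row) in each kept spot of the 4 sections, as CPM in colour, capped at 4000 for Ckm and 600 for Ckb; both axes are in steps between neighbouring spots. Ckm is high over the whole control and in the muscle-rich spots of the infarcted sections and low in their low-share spots (92.9 to 272 CPM), whereas Ckb is found in spots of both kinds.

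In spots of middle share Ckm was at 1294, 1142 and 1188 CPM in the 3 infarcted sections. The fall against muscle-rich spots was -1.22 ± 0.22 on the log2 scale (SE; edgeR adjusted p = 0.0050). Ckmt2 (-1.05), Pygm (-0.82), Pygb (-0.71) and Ak1 (-0.71) were also lower and Ckb (0.49) was higher. Slc6a8, at 0.08 ± 0.14 (SE), did not pass (edgeR adjusted p = 0.79). Of all genes 7.71% passed, 3.13% higher and 4.57% lower. Of the 11 cardiomyocyte markers 7 passed as lower too, from -1.37 (Tcap) to -0.79 (Ryr2), so that Tcap stood further down than Ckm. Border-zone cardiomyocyte markers were at 26907, 37946 and 33425 CPM in middle against 10488, 18352 and 9405 CPM in muscle-rich spots. Without Nppa, the highest of them, they were at 10601, 12378 and 11736 CPM against 5974, 9371 and 5889 CPM. Fibroblast markers were at 7713, 11393 and 7107 against 3109, 4984 and 2772 CPM, and macrophage markers at 2329, 2778 and 1765 against 1406, 1669.9 and 1201 CPM. Mitochondrially encoded genes took 27.6%, 26.5% and 20.3% of UMIs against 38.9%, 40.8% and 28.7%, and the part of these in the calls was not tested. The higher ones were 40.7% of those that passed, 31.9% with the size factors of DESeq2 and 70.1% with library sizes alone. These 6 calls rest on few sections: without 5 dpi-F, or without the block, none of the 7 genes passed, and without 5 dpi-M 3 did. The call of Ckb was lost with any 1 section left out (edgeR adjusted p = 0.12 to 0.25), and those of Ckb and Ckmt2 with the Wald test of DESeq2 (adjusted p = 0.090 and 0.15).

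A second fit asked whether a gene moved more or less than the cardiomyocyte markers, by taking the summed UMIs of the 11 markers as the library size. On this scale Ckm and Ckmt2 were lower in low than in muscle-rich spots, as were 0.332% of the 10848 genes, while 97.1% were higher and the median change of all genes was 3.51 log2. Ckm was at 13.4, 14.9 and 10.6 UMIs per 1000 marker UMIs in low spots against 30.5, 31.2 and 26.1 in muscle-rich spots. Ckmt2 was at 15.7, 12.9 and 8.55 against 25.9, 28.8 and 24.4. Both genes were lower in low spots in 3 of 3 sections.

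The fitted change per marker UMI was -1.18 ± 0.35 for Ckm and -1.12 ± 0.35 for Ckmt2 (SE), with edgeR adjusted p-values of 8.1e-04 and 0.0016. The 11 markers themselves spread from -0.76 (Myl3) to 1.10 (Tnnt2) in this fit, with Tnni3, Myl2, Mb and Tcap between -0.70 and -0.64, so both kinases lay below each of the markers; their difference from a single marker was not tested, and at 3 dpi alone Ckmt2, at -0.72, lay within the range of the markers. Without 5 dpi-M the changes were -1.13 and -0.94 and no longer passed, with adjusted p-values of 0.059 and 0.12.

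Pygm did not pass in either direction, with 4.96, 6.27 and 4.86 UMIs per 1000 marker UMIs in low spots against 5.44, 4.39 and 4.34 in muscle-rich spots. Its change was 0.18 ± 0.36 (SE; edgeR adjusted p = 0.62), and it was lower at 3 dpi and higher in both 5 dpi sections. Pygb (0.84), Ak1 (1.23), Slc6a8 (2.90) and Ckb (3.93) were higher, in 3 of 3 sections each, which read against the median of all genes is less than the typical gene for the first 3 and more for Ckb. Ckb was at 12.6, 42.4 and 35.7 UMIs per 1000 marker UMIs in low spots against 1.53, 2.26 and 1.71. The calls of Pygb and Ak1 were lost without either 5 dpi section, with adjusted p-values of 0.080 to 0.26.

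**Figure D4:**
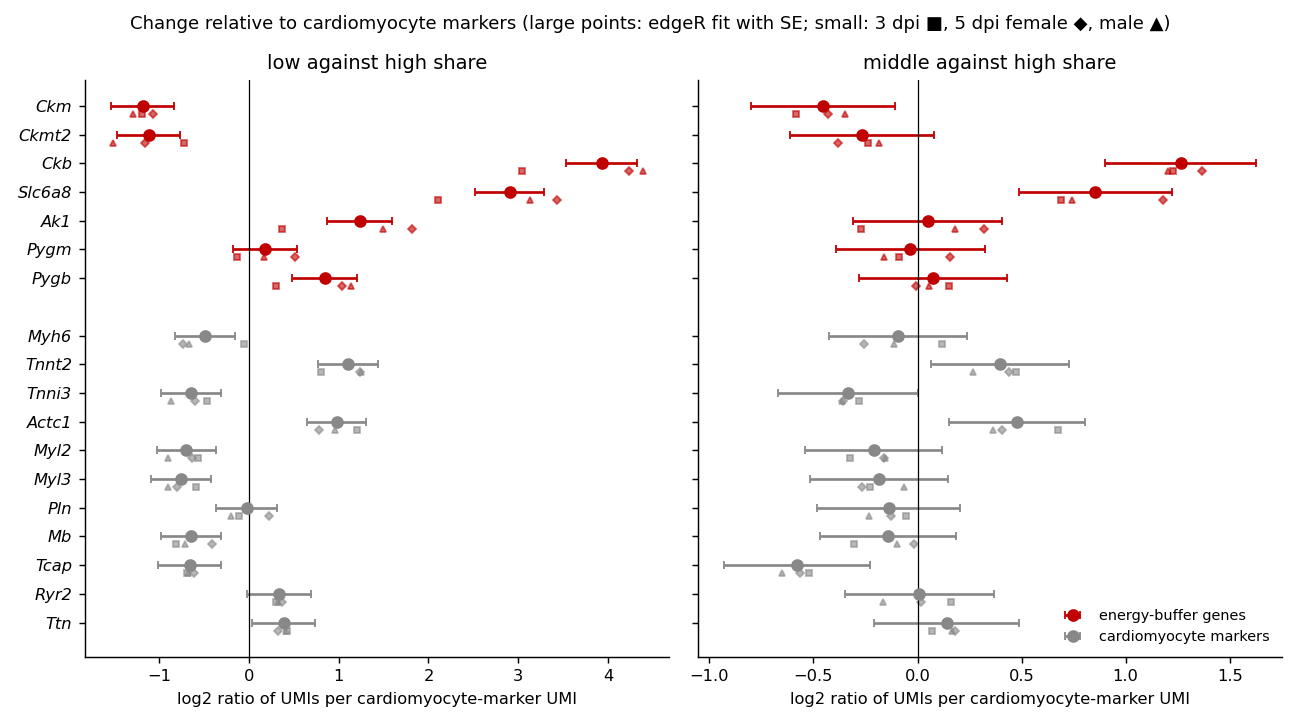
Log2 ratio of UMIs per cardiomyocyte-marker UMI, low (left) and middle (right) against muscle-rich spots, for the 7 genes and the 11 markers; large points are the edgeR fit with its SE and small points the 3 infarcted sections. Ckm (-1.18) and Ckmt2 (-1.12) lie left of each marker in low spots, Pygm lies near 0, and Ckb (3.93) lies furthest right.

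In middle spots Ckb alone of the 7 passed on this scale, at 1.26 ± 0.36 (SE; edgeR adjusted p = 0.0098), where 22.1% of genes were higher and 0.0645% lower. Without 5 dpi-F or 5 dpi-M this call was lost too, with edgeR adjusted p-values of 0.31 and 0.38 at changes of 1.22 and 1.29. Ckm was at 20.4, 23.1 and 20.5 UMIs per 1000 marker UMIs, below its muscle-rich value in 3 of 3 sections. Its change of -0.45 ± 0.35 (SE) did not pass (edgeR adjusted p = 0.27). By section its log2 ratio was -0.58, -0.43 and -0.35. The SE comes from a variance pooled over genes and is not the spread of these values. Slc6a8 was at 0.85 ± 0.37 (SE), with an edgeR adjusted p of 0.067. Without 3 dpi it passed at 0.94 (edgeR adjusted p = 2.7e-04), but the number of all genes that passed varied widely with the section left out, as given below. Ckmt2 (-0.27), Pygm (-0.036), Ak1 (0.048) and Pygb (0.074) did not pass. The 49 middle spots of the control held 35.2 Ckm UMIs per 1000 marker UMIs against 32.2 in its muscle-rich spots. They are not like the middle spots after infarction: their median cardiomyocyte share was 7.91%, against 6.37%, 5.01% and 5.85%. These control spots were rich in blood, with 34530 CPM of the 4 haemoglobin genes against 7653 CPM in the muscle-rich ones, whose part in this was not tested.

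By place, the 3 infarcted sections were laid out from the inside of an infarct patch (at least 10 connected low spots) outward. Ckm was at 139, 16.4 and 38.3 CPM more than 4 spot steps inside the patch, at 418, 372 and 432 CPM in its outer 2 steps, at 1268, 1219.8 and 1150.5 CPM in the first 2 steps outside, and at 2796, 2665 and 2045 CPM more than 4 steps away. Per 1000 marker UMIs the same places held 11.2, 5.75 and 7.12, then 14.0, 17.8 and 15.2, then 19.8, 23.9 and 19.8, and then 30.2, 31.9 and 25.7. Ckm was thus higher in each of these places than in the one before it, on both scales and in each section. Slc6a8 was at 93.3, 101 and 93.5 CPM deep inside, at 136, 162 and 127 CPM in the first 2 steps outside, and at 111, 99.2 and 111 CPM far away. The edge was the highest of these 3 places in 3 of 3 sections, though the interval at the edge was clear of both others only in 5 dpi-F.

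Muscle-rich spots within 4 steps of a patch were then compared with those further off. Near spots held 152, 97 and 70 spots and far spots 350, 189 and 437. Ckm was at 2557 CPM near and 3080.2 CPM far at 3 dpi, at 2079 and 2791 CPM in 5 dpi-F, and at 1932 and 2222 CPM in 5 dpi-M. Ckmt2 was at 2268, 1955 and 1865 CPM near and at 2569.7, 2561 and 2075 CPM far. Both were lower near the patch in 3 of 3 sections, by -0.38 ± 0.06 and -0.33 ± 0.06 on the log2 scale (SE), with edgeR adjusted p-values of 1.6e-05 and 2.7e-04. Of the 7087 genes tested 4.74% passed, 1.78% higher and 2.96% lower. The higher ones were 37.5% of those that passed, 64.0% with library sizes alone and 21.1% with the Wald test of DESeq2.

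The other 5 genes did not pass. Ak1 was at 403, 280.4 and 257 CPM near against 449, 328 and 315 CPM far (-0.30 ± 0.10 SE, edgeR adjusted p = 0.077), and Pygm changed by -0.25 ± 0.09 (SE; edgeR adjusted p = 0.14). Ckb was at 181, 223 and 158 CPM near against 128, 168 and 141 CPM far, higher in 3 of 3 sections, with a change of 0.28 ± 0.13 (SE; edgeR adjusted p = 0.29). Slc6a8 stood at 0.21 ± 0.15 and Pygb at -0.13 ± 0.08 (SE).

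Other measures moved with this contrast. The cardiomyocyte share was 8.83%, 7.24% and 7.74% near against 9.87%, 8.67% and 8.47% far, and 9 of the 11 markers passed as lower too, from -0.69 (Tcap) to -0.19 (Actc1). The 7 markers of border-zone cardiomyocytes summed to 14599.9, 24752 and 14302 CPM near against 8470, 15368 and 8631 CPM far. Without Nppa, the highest of them, the sums were 6804, 10681 and 6429 CPM near against 5567, 8760 and 5804 CPM far. The fibroblast markers summed to 4184, 7014 and 4494 CPM near against 2581, 4037 and 2500.1 CPM far. Macrophage markers were at 1815, 1856 and 1537 CPM near against 1206, 1583 and 1148 CPM far, haemoglobin genes at 4872, 17126 and 13290 CPM against 6820, 31916 and 14717 CPM, and mitochondrially encoded genes took 37.7%, 37.7% and 27.2% of UMIs against 39.6%, 42.1% and 29.0%. The part of these in the lower Ckm and Ckmt2 was not tested. Among spots with a relative share of 0.75 to 1, where 76 genes passed in place of 336, Ckm was at -0.25 and passed (edgeR adjusted p = 0.032), and Ckmt2 was at -0.17 and did not (adjusted p = 0.32). Without the section as a block no gene passed and Ckm had an adjusted p of 0.91, and without 5 dpi-F that of Ckmt2 was 0.12.

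Per marker UMI, Ckm (-0.12 ± 0.06) and Ckmt2 (-0.06 ± 0.07) did not pass, with edgeR adjusted p-values of 0.26 and 0.63. Ckb (0.55 ± 0.14) and Slc6a8 (0.47 ± 0.16) passed as higher near the patch (SE; edgeR adjusted p = 0.0021 and 0.031), each in 3 of 3 sections. Pygb (0.13), Pygm (0.0076) and Ak1 (-0.034) did not pass. On this scale 11.5% of genes passed, 11.1% higher and 0.367% lower. Neither Ckb nor Slc6a8 passed without the block (0.55 and 0.50), without 5 dpi-F (0.50 and 0.34) or among spots with a relative share of 0.75 to 1 (0.49 and 0.30). The call of Ckb was also lost without 3 dpi (0.49, edgeR adjusted p = 0.063) and that of Slc6a8 without 5 dpi-M (0.49, adjusted p = 0.076), with near as 1 to 2 steps (0.66) and without a filter on low counts (0.47).

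**Figure D5:**
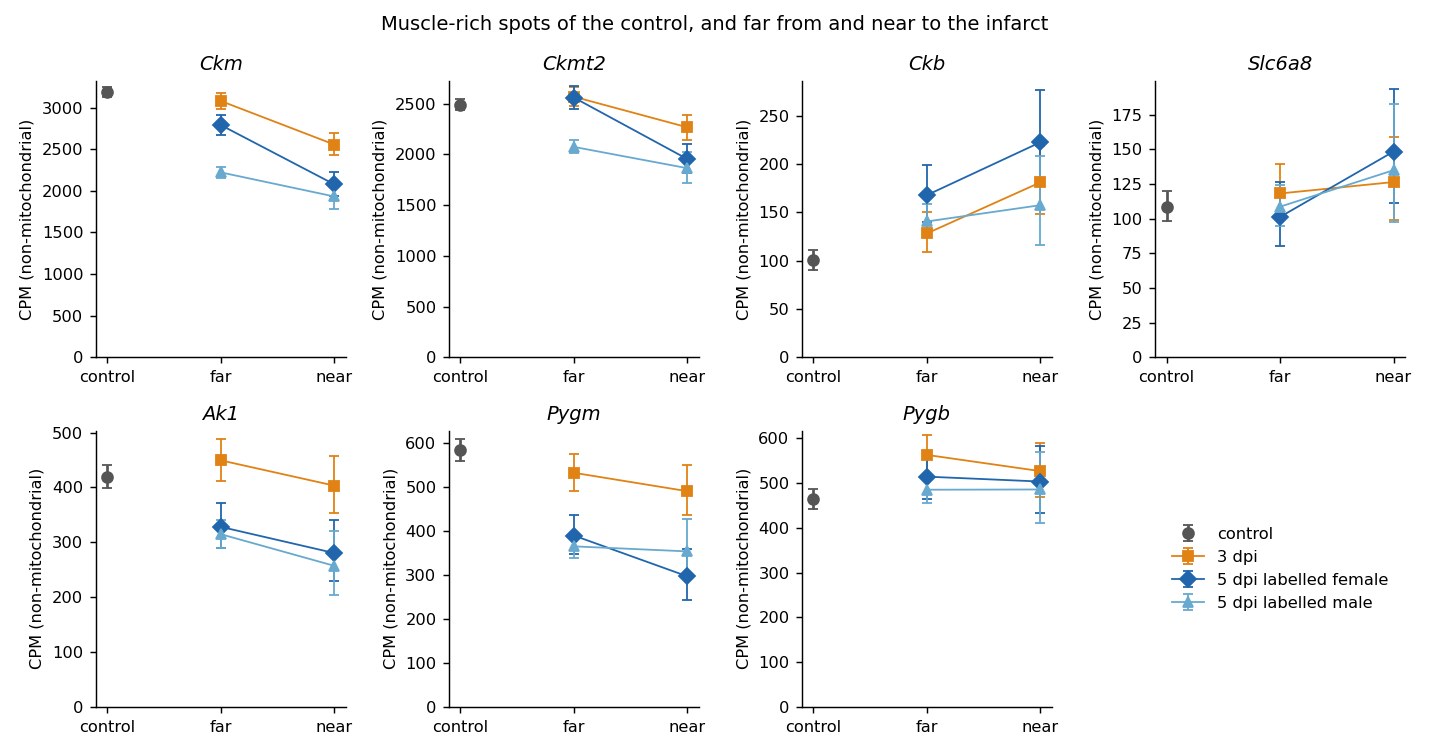
Level of the 7 genes in muscle-rich spots of the control and, in the 3 infarcted sections, more than 4 steps (far) and 1 to 4 steps (near) from an infarct patch, in CPM on axes from 0 with exact Poisson 95% intervals. Ckm and Ckmt2 are lower near than far in 3 of 3 sections and Ckb is higher in 3 of 3.

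The low spots were also split into 3 equal parts by the share of another cell type's markers, as a description. Where macrophage markers were highest, Ckm was at 0.0807 to 0.346 times its level in the part where they were lowest, over the 3 sections, and Ckmt2 at 0.0609 to 0.276 times. Ckb was at 0.820 to 1.02 times and Slc6a8 at 0.682 to 0.760 times. Ckb thus differed little along a gradient on which the muscle kinases differed several-fold. The cardiomyocyte share itself was lower in the macrophage-richest part, at 0.925%, 0.196% and 0.163% against 3.14%, 1.49% and 1.85%, so the gradient of one cannot be told apart from that of the other. Split by mural and smooth muscle markers, Ckb was at 1.17 times at 3 dpi, 1.001 times in 5 dpi-F and 1.08 times in 5 dpi-M. Split by fibroblast markers it was at 0.871 to 0.957 times, and by endothelial markers at 0.819 to 0.953 times.

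Of the wider pathway, a list of 46 other genes of creatine, adenylate and glycogen metabolism was read, of which 45 were in the files and 35 passed the filter on low counts. In low against muscle-rich spots 23 were lower, 6 higher and 6 did not pass (edgeR, Benjamini-Hochberg), where 26.2% of all genes were lower and 26.5% higher, with a median log2 change of -0.67 against 0.049 for all genes. Among the lower ones were Slc25a4, the muscle ATP/ADP carrier of the mitochondrial inner membrane (-3.30, edgeR adjusted p = 1.2e-08), Ppp1r3a, the muscle subunit that targets protein phosphatase to glycogen (-2.81, adjusted p = 2.4e-05), and Prkaa2, a catalytic subunit of AMP-activated kinase (-2.60, adjusted p = 1.5e-06). The higher ones were Pygl, the liver-type phosphorylase (1.69, edgeR adjusted p = 3.7e-05), Gatm, the first enzyme of creatine synthesis (1.36, adjusted p = 3.4e-04), Ampd2, an AMP deaminase (1.14, adjusted p = 8.4e-04), Pgm2, Phkg2 and Prkaa1. The list thus held isoforms on both sides, as the 7 genes did: Pygl with Ckb on the side of the low spots, and Slc25a4 with the muscle isoforms.

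Per marker UMI none of the 35 was lower in low spots and 32 were higher, where 97.1% of all genes were higher and 0.332% lower, with a median of 2.80 against 3.51 for all genes. The highest were Pygl (5.15), Gatm (4.79) and Ampd2 (4.58), and the 3 that did not pass were Slc25a4 (0.14), Ppp1r3a (0.42) and Prkaa2 (0.75). In middle spots 1 gene was lower (Slc25a4, -0.999, edgeR adjusted p = 0.0071), 1 was higher (Prkab2, another subunit of AMP-activated kinase, 0.80, adjusted p = 0.035) and 33 did not pass, among them Ppp1r3a (-1.09), Ppp1r3b (-0.91), Ampd2 (0.69) and Pygl (0.61); of all genes 3.13% were higher and 4.57% lower. Of the 25 listed genes tested in near against far muscle-rich spots Slc25a4 passed as lower (-0.41, edgeR adjusted p = 1.8e-07) and 24 did not pass, among them Phka1 (-0.60), Ppp1r3c (0.25), Prkab2 (0.32) and Phka2 (0.43). Of all genes 1.78% were higher and 2.96% lower here. The median of the 25 was -0.14 against 0.0028 for all genes. Per marker UMI 4 of the 35 passed as higher in middle spots (Prkab2 at 1.56, Ampd2 at 1.48, Pygl at 1.40 and Stbd1 at 1.22), where 22.1% of all genes did, and none was lower. At the other end were Ppp1r3a (-0.28), Slc25a4 (-0.21) and Ppp1r3b (-0.13). Near the patch 1 of the 25 passed as higher (Slc25a5 at 0.28), where 11.1% of all genes did, and none was lower; among the others were Phka2 (0.69), Prkab2 (0.59), Ppp1r3c (0.52), Slc25a4 (-0.14) and Phka1 (-0.33). Slc25a4 was thus lower, as Ckm and Ckmt2 were, in each of the 3 contrasts fitted with TMM.

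Genes whose levels were most like those of each member were sought over 11 sums (2 classes of the control and 3 of each infarcted section), with Pearson's r of log2(CPM + 1) among 4156 genes, as a description. The sums share sections and the ordering by cardiomyocyte share. For Ckm these were Asb11 (r = 0.998), Ndufa10 (0.998) and Atp5b (0.997), for Ckmt2 Lpin1, Pde4dip and Asb11, for Ak1 Idh3g, Acadvl and Ppp2r3a, for Pygm Atp2a2, Immt and Fyco1, and for Pygb Uqcrc1, Map1lc3a and Coq8a. Those of Ckb were Cyb5r3 (0.989), Tmem219 (0.983) and Mxra7 (0.982), and those of Slc6a8 were Pet100 (0.907), Cd81 (0.853) and Dst (0.849). Ckm and Ckmt2 had an r of 0.995 with each other, and Ckb an r of -0.837 to -0.756 with Ckm, Ckmt2, Ak1, Pygm and Pygb. Slc6a8 followed neither side closely, with 0.059 for Ckb and 0.446 to 0.487 for the other 5.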

How the data were processed

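The deposited files held raw counts, UMIs per gene and spot, which the authors made with Space Ranger (1.3.1 in the file headers) from 10 µm fresh-frozen Visium sections. The labels name mm10 and the study's methods another release, so no gene coordinates were taken; promoter windows are those of RefSeq on GRCm38.p6. According to the methods, spots under tissue were picked by hand. Of these, spots with at least 500 UMIs, 250 genes and at most 50% mitochondrial UMIs were kept.

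The members and lists were chosen with earlier results of these data known. The naming rule took all 7 members in each comparison, of the pathway list the 3 highest and 3 lowest changes, and for each member the 3 genes with the nearest pattern. A value that this rule would name among the pathway genes is not reported here. UMIs were summed per section and class (9 sums) or per section and distance (6 sums) of the 3 infarcted sections and tested with edgeR 4.0.16 (quasi-likelihood, TMM, section as block, Benjamini-Hochberg, threshold 0.05); spots were not used as replicates. The second fits took summed marker UMIs as library size, without TMM. Each section is 1 heart, so the tests hold 3 hearts of 2 time points. Each SE was calculated from the fitted change and its test statistic. The variance behind SE and p-values was largely pooled over genes, and almost wholly for low and middle spots per marker UMI. They do not measure the spread of 1 gene between hearts. The control entered no test. The TMM fits of low against muscle-rich and of near against far spots were also run on simulated counts. These had no differences between sections and fewer changed genes than passed in the data. The fits per marker UMI were not simulated, and no result here rests on the simulation. DESeq2 1.42.0, other scalings, filters, limits and marker sets and leaving out each section were tried as alternatives. Tables were made in pandas 2.3.3 and NumPy 2.4.6 under Python 3.11.15, intervals with SciPy 1.17.1, fits in R 4.3.3 and figures with matplotlib 3.10.9. Images were not used. Pairs of sections shared 446 to 1165 spot barcodes, which are positions on the slide and not cells.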

Additional observations from a re-analysis of the deposited data

Results flagged for a closer look

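Per cardiomyocyte-marker UMI, Pygm in low against muscle-rich spots had a log2 ratio of -0.13 at 3 dpi and of 0.52 and 0.16 in the 5 dpi sections, so that the time points lay on opposite sides of 0; the difference was not tested. Ak1 in middle against muscle-rich spots likewise stood at -0.27 at 3 dpi and at 0.32 and 0.18 at 5 dpi, also not tested. In 5 dpi-M, 623 spots not marked as under tissue held Ckb at 221 CPM (exact Poisson 95% interval 202 to 241), above the 103 CPM of the control and below the 254 CPM of the spots under tissue of the same section. Ckm was at 344 CPM in these spots, and cardiomyocyte markers were 1.66% of their UMIs.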

How the results depend on the processing

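In low against muscle-rich spots all 7 members kept their direction under every alternative run, and 6 to 7 passed when a section was left out. Over all members and contrasts, 442 of 504 alternative values kept direction and side of the threshold, 47 no longer passed, 6 newly passed and 9 changed sign. The tested contrasts were paired within sections, with the section as block; sections of different groups were not paired, since the labels tie none together.

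Among the tested contrasts, those of middle spots and near the patch depended most on the settings. The fits without the block also tested fewer genes after the filter on low counts. They held 10508 in place of 10848 genes for the classes of spots and 6491 in place of 7087 for near against far. Middle spots: 836 genes and 6 members passed, against 22 and 0 without the block (1719 genes and 6 members at an unadjusted p under 0.05), 60 to 528 genes and 0 to 4 members with a section left out, and 1374 and 2538 genes with class limits of 0.4 and 0.8 or 0.25 and 0.75. Middle spots per marker UMI: 2401 genes and 1 member passed, against 371 and 0 without the block, 2 to 5638 genes and 0 to 2 members with a section left out, 3850 and 8218 genes and 2 members each with those limits, and 1413 genes with the share from Actc1, Myl2, Myl3, Pln, Mb and Tcap. Low spots per marker UMI: 6 members passed, 2 to 6 with a section left out. Near against far: 336 genes and 2 members passed, against 152 genes by DESeq2, 0 and 0 without the block (350 genes and 0 members unadjusted), 93 to 298 genes and 1 to 2 members with a section left out, 76 genes and 1 member with a relative share of 0.75 to 1, and 4 members with all spots under tissue. Near against far per marker UMI: 813 genes and 2 members passed, against 0 and 0 by edgeR without the block (688 genes and 2 members unadjusted), 356 to 684 genes and 0 to 1 members with a section left out, 496 genes and 1 member for near as 1 to 2 steps, 67 and 0 with a relative share of 0.75 to 1, and 1 member without a filter. Of the fits with a section left out in these contrasts, that without 5 dpi-F had the fewest genes, except for middle spots per marker UMI, where that without 5 dpi-M had. The cause was not tested.

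Mean log2 ratios over the control in muscle-rich spots only were -0.33 (Ckm), -0.12 (Ckmt2), 0.64 (Ckb), 0.10 (Slc6a8), -0.27 (Ak1), -0.52 (Pygm) and 0.15 (Pygb, sign changed). Over all UMIs they were 1.78 (Ckb), 0.51 (Slc6a8), -0.85 (Ak1) and -0.59 (Pygb). With TMM they were 0.88 (Ckb), -0.39 (Slc6a8) and -1.75 (Ak1). With cardiomyocyte markers left out of the total, Slc6a8 was at -0.070. In muscle-rich spots the ratio of Ckb to Ckm changed by 0.97 and that of Ckmt2 to Ckm by 0.21.

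Member values that changed sign passed in no such setting. Leaving out a section gave Slc6a8 in middle spots -0.022 to 0.15; in middle spots per marker UMI Ak1 -0.069 to 0.25 and Pygm -0.12 to 0.026; and near against far per marker UMI Pygm -0.023 to 0.059 and Ak1 -0.064 to 0.015. In the last contrast Pygm was also at -0.014 with all spots under tissue and -0.065 for near as 1 to 2 steps. Control and 3 dpi have 1 section each, which limits each comparison with them to counting error.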
